A study of Caenorhabditis elegans with 2 samples.

Results

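Small nucleolar RNA (snoRNA) genes that lie outside a protein-coding host gene on their own strand were examined for binding of a GFP-tagged protein in Caenorhabditis elegans. A gene was included when Ensembl annotated it as a snoRNA on build WBcel235 (ce11) and when it was not fully contained in a protein-coding gene of the same strand. This gave 163 of the 346 annotated snoRNA genes and of 46890 nuclear genes in all. Of these, 124 were intergenic, 38 were antisense, meaning that they overlapped a protein-coding gene of the opposite strand, and 1, T23G11.12, overlapped a same-strand gene in part. A reproducible peak summit lay within 200 bp of the annotated start of 36 of the 163 genes, which is 22.1% (95% Wilson interval 16.4% to 29.1%), against 1.40% of the 46727 other nuclear genes.

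By way of background, snoRNAs guide the chemical modification of ribosomal and spliceosomal RNAs. Box C/D snoRNAs direct ribose methylation by fibrillarin, and box H/ACA snoRNAs direct pseudouridylation by dyskerin. Many are cut from the introns of a host gene and need no promoter of their own, whereas a snoRNA gene outside a host needs its own promoter or that of another transcript, read by RNA polymerase II or III. At tRNA genes RNA polymerase III is recruited through 2 short elements inside the gene, the A box and the B box, which the factor TFIIIC binds, and transcription ends at a run of T.

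The chromatin came from whole hermaphrodite young adults of strain OP478, collected 64 h after synchronization as starved L1 larvae. The strain carries the allele unc-119(tm4063) on chromosome III and the transgene wgIs478, which expresses T07F8.4 with GFP and FLAG at its C terminus. An antibody to GFP was used for chromatin immunoprecipitation and sequencing in 2 biological replicates of this 1 group, so no comparison between groups was possible, and untagged animals and input DNA were not analysed here. Whole animals were used, so the cells that carried a peak are not known, and neither is the strand of transcription, which this assay does not record.

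The letters upstream of these genes are shown before the values because several of the genes with peaks shared them. In 12 of the 36 genes an A box was followed by a B box on the strand of the snoRNA gene, and the pair ended just before the annotated start. The B box was searched as GTTCNANNC and the A box as TRGYNNANNNG, where R is A or G, Y is C or T and N is any base. This A box pattern leaves the letter after its A open. The starts of the boxes had to be 25 to 80 bases apart, from 150 bases before to 30 after the gene start. The pair was picked after these sequences and peaks had been seen. The 90 bases before 5 such genes follow, 5′ to 3′ on the strand of the gene, with the A box and then the B box in capitals. They lie on ce11 at chrV:11314168-11314257 (+), chrII:11960808-11960897 (+), chrV:15191094-15191183 (-), chrIV:11549865-11549954 (-) and chrII:5105232-5105321 (-).
T03F7.8: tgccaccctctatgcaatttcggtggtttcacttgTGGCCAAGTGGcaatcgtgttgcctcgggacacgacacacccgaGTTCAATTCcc
W03C9.9: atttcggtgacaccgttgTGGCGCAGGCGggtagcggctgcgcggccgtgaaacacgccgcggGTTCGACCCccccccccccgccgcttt
Y75B12B.12: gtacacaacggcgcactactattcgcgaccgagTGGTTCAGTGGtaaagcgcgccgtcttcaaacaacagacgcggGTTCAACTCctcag
F12F6.11: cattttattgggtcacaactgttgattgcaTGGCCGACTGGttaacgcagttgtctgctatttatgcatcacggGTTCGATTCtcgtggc
C04G6.12: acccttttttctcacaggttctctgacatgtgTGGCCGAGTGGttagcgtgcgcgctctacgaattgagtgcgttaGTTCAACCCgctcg

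T04A8.17 and F30H5.4 also had a reproducible summit but did not match these patterns fully. T04A8.17 was 1 letter away in the A box and 1 letter away in the B box, and F30H5.4 was 1 letter away in the A box only. Their upstream letters are shown with these near matches in capitals, at chrIII:4689772-4689861 (-) and chrIII:502714-502803 (+).
T04A8.17: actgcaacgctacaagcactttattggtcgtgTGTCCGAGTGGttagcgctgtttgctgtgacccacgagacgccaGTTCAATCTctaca
F30H5.4: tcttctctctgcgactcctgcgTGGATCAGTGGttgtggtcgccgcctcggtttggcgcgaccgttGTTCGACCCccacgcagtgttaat

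Another run of letters, GCGGAAC, stood upstream of 6 other genes with a reproducible summit and of 11 genes with a summit in the pooled list only. It was searched on both strands of the 150 bases before the start, and it too was picked after the sequences had been seen. The 120 bases before 3 of the genes with a reproducible summit (T26A8.6, Y53F4B.47 and Y67A10A.14) and 2 with a pooled summit only (C05H8.3 and smy-3) are shown with these letters in capitals. They lie at chrIV:8428740-8428859 (-), chrII:15025894-15026013 (-), chrIV:14327122-14327241 (-), chrIII:5653969-5654088 (-) and chrV:14092452-14092571 (+).
T26A8.6: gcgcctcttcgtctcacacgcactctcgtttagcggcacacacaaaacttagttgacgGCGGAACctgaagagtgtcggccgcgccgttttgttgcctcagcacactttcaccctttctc
Y53F4B.47: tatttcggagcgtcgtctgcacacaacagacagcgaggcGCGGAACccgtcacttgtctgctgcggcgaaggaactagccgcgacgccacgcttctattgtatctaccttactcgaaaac
Y67A10A.14: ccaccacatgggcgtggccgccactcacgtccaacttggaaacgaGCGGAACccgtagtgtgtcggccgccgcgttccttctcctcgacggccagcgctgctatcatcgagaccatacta
C05H8.3: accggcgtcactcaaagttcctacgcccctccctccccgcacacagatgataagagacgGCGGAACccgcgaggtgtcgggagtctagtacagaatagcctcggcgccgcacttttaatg
smy-3: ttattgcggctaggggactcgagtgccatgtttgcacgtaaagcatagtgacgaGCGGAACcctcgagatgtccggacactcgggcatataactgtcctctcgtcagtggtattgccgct

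The snoRNA letters themselves are shown for T03F7.8 and H09I01.2, each with the 20 bases that follow the gene. They lie at chrV:11314258-11314352 (+) and chrIV:8253094-8253185 (+). Capitals mark a box C (TGATGA with at most 1 mismatch), a box D (CTGA) and the run of T.
T03F7.8: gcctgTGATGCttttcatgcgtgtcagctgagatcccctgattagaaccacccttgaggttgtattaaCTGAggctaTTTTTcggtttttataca
H09I01.2: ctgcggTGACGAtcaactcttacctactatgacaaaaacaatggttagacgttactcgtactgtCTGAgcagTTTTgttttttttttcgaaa

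Every gene was accounted for in the authors' lists. The list of reproducible peaks, selected by irreproducible discovery rate, held 621 regions, 600 of them nuclear. The list of the pooled replicates held 16958. Besides the 36 genes with a reproducible summit, 35 had a summit in the pooled list only and 92 had no summit within 200 bp. Any pooled summit was thus present at 71 of 163 genes (43.6%, 36.2% to 51.2%), against 10.6% of other nuclear genes. Among genes that had a pooled summit, 36 of 71 were reproducible (50.7%, 39.3% to 62.0%), against 13.2% of the other nuclear genes with one. The reproducible list consisted of the 621 pooled regions with the highest signal, so a gene with a pooled summit only is one below that limit.

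Of the other classes, snoRNA genes inside a same-strand host had a reproducible summit at 28 of 183 (15.3%, 10.8% to 21.2%), an interval that overlaps that of the 163. tRNA genes had one at 271 of 612 (44.3%, 40.4% to 48.2%) and protein-coding genes at 83 of 19973 (0.416%). Taken over all identifiers, the share outside hosts therefore lay between those of tRNA genes and protein-coding genes. Among the earlier gene identifiers described below, the intervals outside and inside hosts did not overlap. The shares there were 32 of 52 (61.5%) outside hosts and 25 of 87 (28.7%) inside. The former also stood above the 44.3% of tRNA genes, with intervals that just overlapped. Wilson intervals cover counting error only, and genes are not replicates of a condition.

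Signal is the authors' peak caller's own value for each peak. The sources do not give its scale, read depth is unknown, and values are set side by side only within a list. Over the 36 genes the pooled signal ran from 75.7 to 254.6 with a median of 138.9 (quartiles 112.0 and 170.8). The median of all 600 nuclear reproducible peaks was 90.7, that of hosted snoRNA genes 128.3, that of tRNA genes 94.2 and that of protein-coding genes 85.0. The 36 genes filled 11 of the 50 highest and 19 of the 100 highest nuclear places. The −log10 q-value stood at the list's upper value for 34 of the 36, against 400 of the 600 nuclear peaks, so the signal was used for ranking.

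The highest signal was at T03F7.8, a C/D snoRNA gene at chrV:11314258-11314332 on the plus strand, antisense in an intron of cutl-18. Its pooled signal was 254.6, with 125.1 in replicate 1 and 134.5 in replicate 2, and its summit lay 47 bp upstream of the start. W03C9.9, an intergenic C/D gene at chrII:11960898-11960959 on the plus strand, had 229.1 pooled, 120.9 in replicate 1 and 105.5 in replicate 2. Of the 36 genes, these had the highest and the second highest signal in each replicate list as well as in the pooled list, and both carried the A and B box pair. ZK265.10, an intergenic gene on chromosome I without the pair, followed with 213.2 pooled, 119.1 and 93.7. B0334.12, on chromosome II and antisense in an intron of twk-5, had 207.3 pooled, 112.1 and 92.0. In each of the 3 lists these 4 genes lay in the upper quartile of the 36.

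T19B4.8 (196.1 pooled, 97.7 and 95.5 in replicates 1 and 2) and Y23H5B.10 (195.9, 99.4 and 97.2) were the next intergenic genes. ZK484.9, antisense in an intron of the transporter gene haf-9, had 182.1 pooled, 87.6 and 93.0. Y75B12B.12, an intergenic C/D gene, had 179.8, 107.6 and 70.0. These 4 genes were close to each other in the pooled list, and in the replicate 2 list Y75B12B.12 lay apart from the other 3. F59C6.15 (178.1 pooled) and T02E1.9 (168.4) came next. F59C6.15 had 118.7 in replicate 1 and 58.9 in replicate 2, and T02E1.9 had 90.9 and 82.4.

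The remaining genes of the highest 20 were Y53F4B.48 (161.8 pooled), T06C12.16 (157.7), F30H5.4 (155.5), T04A8.17 (153.5), F32E10.10 (152.9), C27H5.9 (151.4), W01C9.6 (149.8), C53B7.8 (142.2), F12F6.11 (135.6) and T27A3.9 (130.1). In replicate 1 these 10 ran from 61.1 to 99.2 and in replicate 2 from 60.5 to 93.8. C53B7.8 was the single gene with a reproducible summit on the X chromosome.

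**Figure D1:**
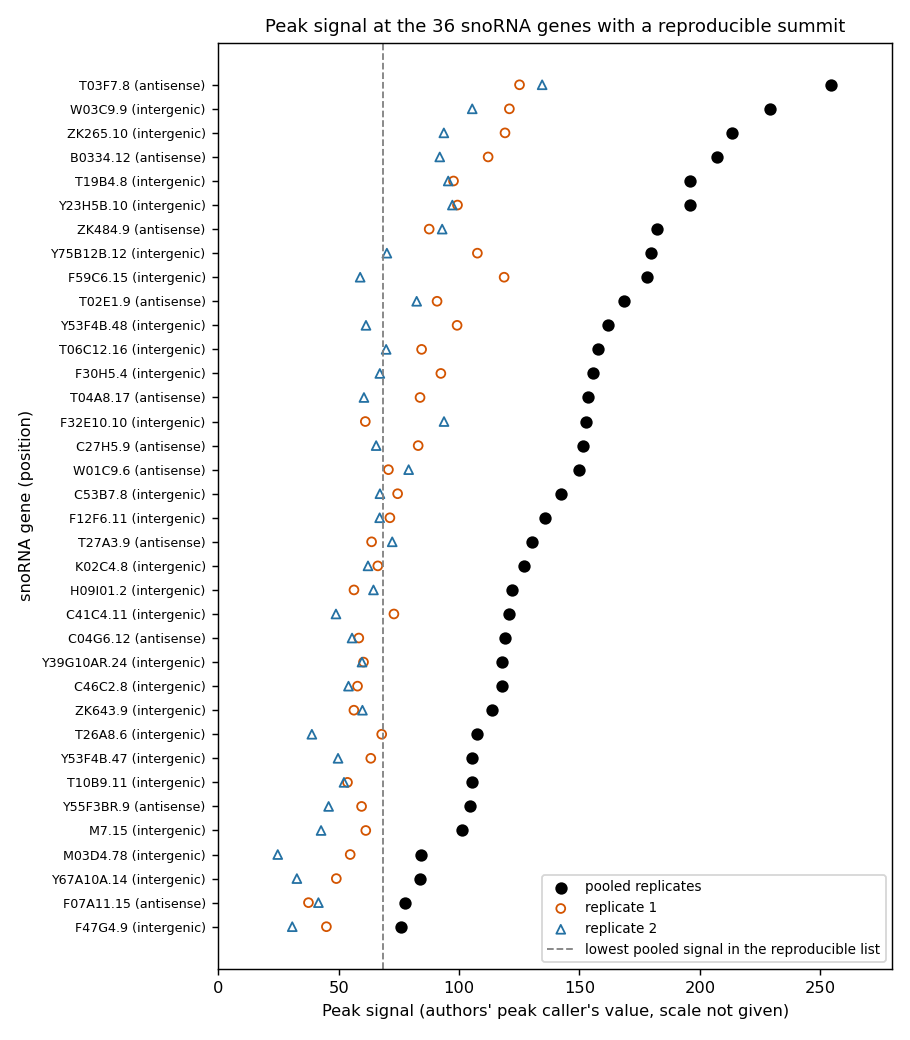
Peak signal (x axis, the authors' caller's value) for each of the 36 snoRNA genes with a reproducible summit (y axis, ordered by pooled signal), as filled points for the pooled replicates, open circles for replicate 1 and open triangles for replicate 2. The pooled points run from 75.7 to 254.6, all right of the dashed line at 68.2, the lowest signal in the reproducible list, and every gene has a point from both replicates.

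The lowest reproducible values belonged to M7.15 (101.1 pooled, 61.3 in replicate 1 and 42.7 in replicate 2), M03D4.78 (84.4, 54.8 and 24.7), Y67A10A.14 (83.8, 49.0 and 32.6), F07A11.15 (77.3, 37.5 and 41.6) and F47G4.9 (75.7, 44.9 and 30.7). Just below the limit of 68.2 were W03B1.17 (67.5 pooled, 41.5 and 26.0), Y74C9A.6 (65.3, 29.7 and 30.04), K07C10.2 (63.6, 36.8 and 23.9), C05H8.3 (62.4, 20.5 and 37.5) and F25H2.15 (61.8, 50.7 and 12.7). All 5 of the latter also had a signal in each replicate list.

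Replicate lists held a summit within 100 bp of the reproducible one at all 36 genes, in both replicates. Since the reproducible list was selected from the other lists, this was close to given by how the 36 were chosen. The same share over all reproducible peaks was not computed. Of the 35 genes with a pooled summit only, 20 had a summit within 100 bp of it in both replicate lists and 15 in 1 list. Of the 92 without a pooled summit, 7 had a summit within 200 bp in replicate 1, 8 in replicate 2 and none in both. Over the 36 genes the signal ran from 37.5 to 125.1 in replicate 1 (median 71.0) and from 24.7 to 134.5 in replicate 2 (median 63.3). The order of the genes changed most for F32E10.10, with 61.1 in replicate 1 and 93.8 in replicate 2, places 25 and 5 of the 36, and for F59C6.15, places 4 and 24. It changed by less for T26A8.6 (67.9 and 38.9), C41C4.11 (72.9 and 48.9) and H09I01.2 (56.4 and 64.5). F32E10.10 and H09I01.2 ranked higher in replicate 2 and the other 3 in replicate 1.

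The summits were narrowly placed. Relative to the annotated start, with upstream positions negative, their median position was -44.5 bp, with quartiles at -51.75 and -26.75 bp. Of the 36 summits, 31 were upstream, and 28 fell from 20 to 75 bp upstream. At hosted snoRNA genes the median was -39.5 bp, with 21 of 28 summits upstream and 7 inside the gene. At tRNA genes the median was 10 bp inside the gene, with quartiles at -18.5 and 42 bp, and at protein-coding genes it was -131 bp. The medians of both kinds of snoRNA gene thus lay upstream and that of tRNA genes lay inside the gene, while the ranges of all of them overlapped.

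**Figure D2:**
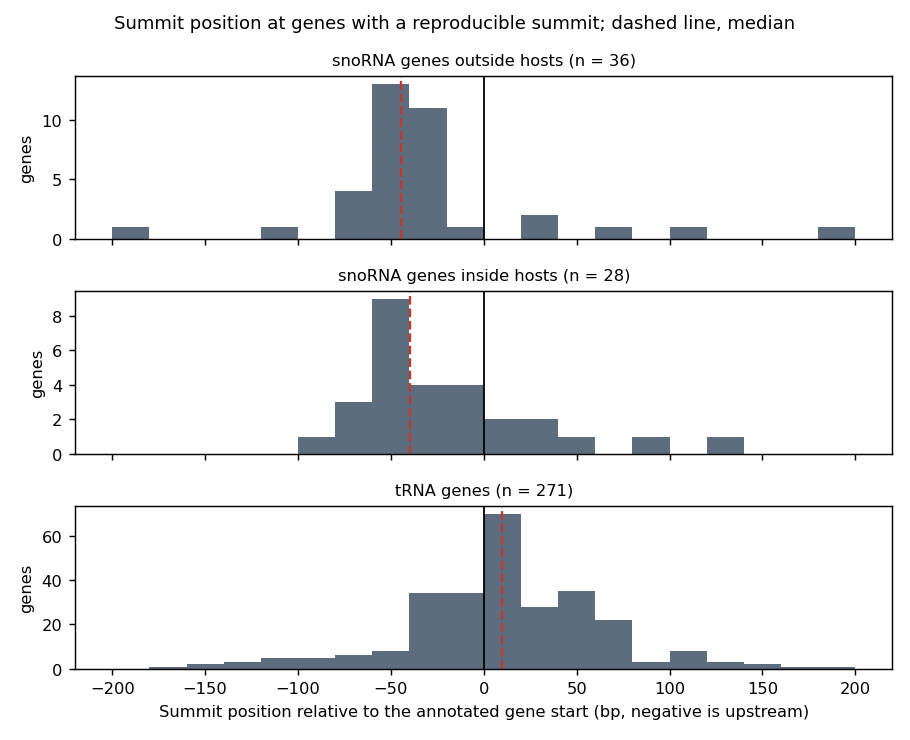
Number of genes (y axis) by the position of the reproducible summit relative to the annotated start (x axis, bp, negative is upstream), for 36 snoRNA genes outside hosts, 28 inside hosts and 271 tRNA genes, with the median as a dashed line. The median is -44.5 bp outside hosts, -39.5 bp inside hosts and 10 bp at tRNA genes.

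The A and B box pairs lay in the same stretch before the start as most of these summits. Genes without the exact pair had their summits there too. The median position was -45.5 bp at the 12 genes with the pair, -46.5 bp at the 6 with GCGGAAC and -36.5 bp at the 18 with neither. Whether the summits follow the boxes was not tested. At the 12 genes with a reproducible summit the A box began 72 to 46 bases upstream of the start (median -57.5) and the B box 27 to 10 bases upstream (median -14). The distance between the starts of the boxes was 36 to 45 bases, with a median of 44. At tRNA genes the pair was looked for farther inside the gene, since the window used above held it at 1 of 612. In 260 tRNA genes with a reproducible summit and the pair, the distance also had a median of 44. There the A box began at a median of 7 bases inside the gene. The summit lay at a median of 13 bases after the start of the A box at the 12 snoRNA genes (range -11 to 84). At the tRNA genes it lay 1 base after it (quartiles -27 and 33.25, range -178 to 177). Counted from the A box rather than from the gene start, the medians of both classes were therefore much closer together.

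In the windows searched, the pair stood before 12 of the 36 genes with a reproducible summit (33.3%), 1 of 35 with a pooled summit only (2.86%) and 3 of 92 without a summit (3.26%). It stood before 10 of 28 hosted snoRNA genes with a reproducible summit and 2 of 155 without one. Over all nuclear genes it was found in 77 of 46884 windows (0.164%) and over protein-coding genes in 0.0851%. Read the other way, 12 of the 16 genes with the pair had a reproducible summit (75%, 50.5% to 89.8%). No tRNA gene started within 200 bp of any of the 163 genes, nor within 1000 bp of any of the 36, so the pairs are not parts of annotated tRNA genes there. When 1 mismatch was allowed in each box the counts became 25 of 36, 8 of 35 and 16 of 92, but 16.8% of all windows then matched.

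The signal of the 12 genes with the pair ran from 105.2 to 254.6 with a median of 160.6. The 12 were T03F7.8, W03C9.9, T19B4.8, ZK484.9, Y75B12B.12, T02E1.9, F32E10.10, F12F6.11, C41C4.11 (120.9), C04G6.12 (119.2), Y39G10AR.24 (118.0) and T10B9.11 (105.2). The 18 genes with neither the exact pair on the annotated strand nor GCGGAAC had a median of 146.0, from 77.3 to 213.2. The signals with and without the exact pair thus overlapped over most of their range. Most of these 18, such as F30H5.4 and T04A8.17, held near matches with up to 1 mismatch in each box. B0334.12 (207.3) held the pair on its opposite strand. ZK265.10 (213.2) held the exact pair on neither strand and no near match on its annotated strand. Near matches were not searched on the opposite strand.

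The 4 genes with the pair and no reproducible summit were H04D03.5, with a pooled summit, and Y59E1B.14, Y6B3B.15 and ZC395.12, with none. H04D03.5 and Y59E1B.14 are shown in the same way, at chrIII:10432253-10432342 (+) and chrX:1891419-1891508 (+). A match is a description of letters, and that a factor binds there was not tested.
H04D03.5: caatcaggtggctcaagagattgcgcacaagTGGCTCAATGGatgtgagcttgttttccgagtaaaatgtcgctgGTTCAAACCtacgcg
Y59E1B.14: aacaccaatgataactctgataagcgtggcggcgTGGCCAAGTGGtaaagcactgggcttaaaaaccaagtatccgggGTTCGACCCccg

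**Figure D3:**
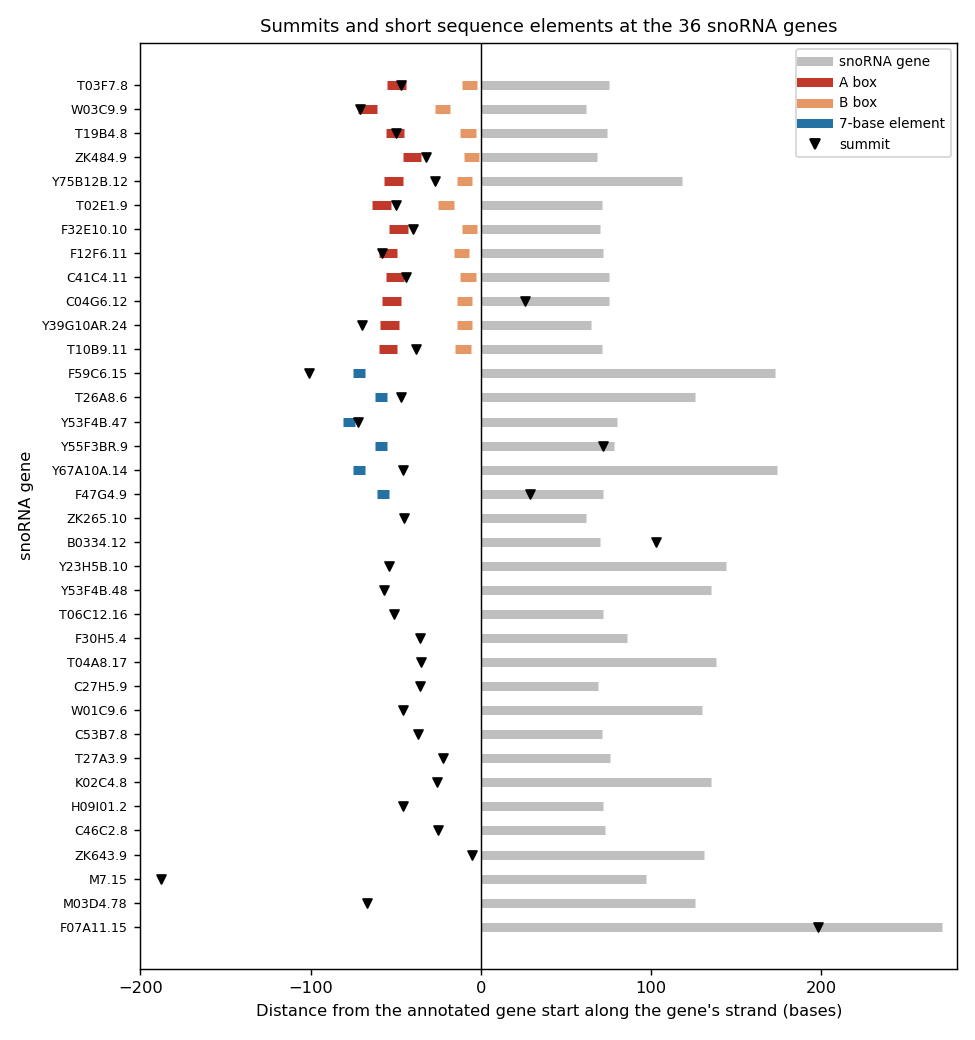
Distance from the annotated start along the strand of the gene (x axis, bases) for each of the 36 genes (y axis, grouped by upstream element and ordered by signal), with the gene in grey, the A box in red, the B box in orange, the 7-base element in blue and the summit as a triangle. In the 12 genes at the top the A box begins between -72 and -46 and the B box between -27 and -10, and in the next 6 the 7-base element begins between -81 and -61.

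Runs of T followed many of the same genes. At least 4 T in a row lay within the 10 bases after the annotated end of 22 of the 36 genes with a reproducible summit (61.1%), 10 of 35 with a pooled summit only (28.6%) and 10 of 92 without a summit (10.9%). Of the 12 genes with the pair, 10 also had such a run, as T03F7.8 and W03C9.9 did. With the run of 5 T within 30 bases the counts were 19 of 36, 8 of 35 and 12 of 92. Hosted snoRNA genes with a reproducible summit had that longer run at 17 of 28 and the others at 35 of 155. The share over all nuclear genes was not computed for either run, so these counts have no such background beside them.

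GCGGAAC was found before 6 of the 36 genes with a reproducible summit (16.7%), 11 of 35 with a pooled summit only (31.4%) and 3 of 92 without a summit (3.26%). Over all nuclear genes the share was 0.702%, and over snRNA genes, which encode the RNAs of the spliceosome, it was 24.8% (32 of 129). None of the 20 genes with these letters also held the A and B box pair. At these 6 the letters began 81 to 61 bases upstream of the start. Their signals were 178.1 at F59C6.15, 107.3 at T26A8.6, 105.3 at Y53F4B.47, 104.7 at Y55F3BR.9, 83.8 at Y67A10A.14 and 75.7 at F47G4.9, with a median of 105.0. Apart from F59C6.15 they lay below 11 of the 12 genes with the pair, the exception being T10B9.11. Of the 20 genes with GCGGAAC, 17 had some pooled summit and 6 a reproducible one, so most of them were in the part of the list below the reproducible limit.

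Other letters were searched as well. GTTCGANNC, a stricter B box, was found from 250 bases before to 50 after the start, on either strand, at 8 of 36, 2 of 35 and 2 of 92 genes, against 2.51% of all windows. TGGCNNA, the beginning of an A box, was found at 19 of 36 but also in 30.5% of all windows. TATAAA was found at 9 of 36, against 37.4% of all windows. CTGTTTCA, the core of the element upstream of piRNA genes, was found at none of the 36, none of the 35 and 3 of the 92, against 17.1% of all windows, which include those of piRNA genes, and 2.32% of protein-coding ones. Of 3 further 6-mers, which an earlier look at these same peaks had picked and which therefore carry no support, GGCGCA was found at 12 of 36, 10 of 35 and 9 of 92 genes, against 4.95% of all windows. CACTCG was found at 8 of 36, 3 of 35 and 7 of 92, against 5.42%, and ACGCGC at 5 of 36, 4 of 35 and 7 of 92, against 4.30%. Since the 3 were picked from these peaks, their higher shares at these genes than in all windows are no result of their own. Among 8-mers in the 100 bases upstream, ACGGGTTC was in the most genes with a reproducible summit, 6 of 36, against 5 of the 127 other genes and 0.105% of all windows. It holds the beginning of the B box.

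B0334.12 had its summit 103 bp downstream of the annotated start, past the end of a gene of 70 bases. On its other strand an A box began 62 bases and a B box 18 bases before what would be the gene's start if it were read from the opposite end, and on that strand the summit was 34 bp upstream. It was the single gene of the 163 with the pair in this arrangement. The letters of the opposite strand held a box C and a box D and were followed by a run of T, and those of the annotated strand held neither class of box. The 80 bases before that end and the gene with the 20 bases after it are shown as read on the minus strand, at chrII:11484753-11484832 and chrII:11484663-11484752. The capitals mark the A and B boxes in the former and the box C, the box D and the run of T in the latter.
B0334.12 before the opposite end: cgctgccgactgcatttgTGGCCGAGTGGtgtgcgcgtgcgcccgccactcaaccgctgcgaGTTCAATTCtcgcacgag
B0334.12 opposite strand: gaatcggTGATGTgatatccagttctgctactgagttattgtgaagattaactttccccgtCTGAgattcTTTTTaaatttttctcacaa

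Read on the annotated strand, the summit of B0334.12 was among the 5 that were not upstream, and read on the opposite strand it was within the range where most of the 36 lay. K07C10.2, with a pooled summit of 63.6 lying 90 bp downstream of the annotated start, was the other gene with C/D letters on the opposite strand, where its summit was 4 bp upstream. That summit also lay 3 bp from the start of the ncRNA gene K07C10.6, nearer than to either end of K07C10.2. The strand of transcription was not tested by these data.

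The 5 summits that were not upstream were at B0334.12, C04G6.12 (26 bp inside), Y55F3BR.9 (72 bp inside), F07A11.15 (198 bp inside) and F47G4.9 (29 bp inside). Of these, 4 were antisense genes and F47G4.9 was intergenic. C04G6.12 had the A and B box pair in the usual place upstream even so. M7.15 was farthest upstream, at 188 bp.

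Position relative to other genes was examined next. A reproducible summit was present at 25 of 124 intergenic genes (20.2%, 14.0% to 28.1%) and 11 of 38 antisense genes (28.9%, 17.0% to 44.8%), with overlapping intervals. Signal medians were 127.1 and 151.4. Of the 11 antisense genes, those in an intron were T03F7.8 in cutl-18, B0334.12 in twk-5, ZK484.9 in haf-9, T04A8.17 in ppat-1, C27H5.9 in pdl-1, C04G6.12 in mpk-2 and Y55F3BR.9 in Y55F3BR.2. Those that overlapped an exon were T02E1.9 at spe-12, W01C9.6 at glb-27, T27A3.9 at T27A3.8 and F07A11.15 at din-1. cutl-18 encodes a cuticlin-like protein, twk-5 a potassium channel subunit and mpk-2 a MAP kinase.

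The start of the snoRNA gene itself was the nearest annotated start to 35 of the 36 summits. The exception was Y55F3BR.9, whose summit lay 19 bp from the start of the ncRNA gene Y55F3BR.17 and 72 bp from its own. At 15 of the 36, Y55F3BR.9 included, the nearest start other than the gene's own was that of an ncRNA gene. Its distance from the summit ran from 19 bp to 8199 bp (at F30H5.4). At T27A3.9 it was 44 bp, against 22 bp to the gene's own start. Of the 35 genes with a pooled summit only, another start was nearer at 3, each time that of an ncRNA gene: at K07C10.2 as above, at W06H8.17 (58.8 pooled, 99 bp from W06H8.12 and 154 bp from its own start) and at D2021.6 (50.7 pooled, 67 bp from D2021.5 and 86 bp from its own). A protein-coding start lay within 500 bp of 9 of the 36 summits, the closest being that of cmtr-1, 149 bp from the summit of Y53F4B.47, and that of Y75B12B.11, 176 bp from the summit of Y75B12B.12. The median distance to a protein-coding start was 1013 bp. Only C27H5.9 among the 36 had another snoRNA start within 1000 bp, that of C27H5.10, and the 36 genes had 36 distinct summits.

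Box letters were found in a minority of the genes. The rule asked for box C in the first 20 bases and box D in the last 20, or else for ACA near the 3′ end. It asked for no other H/ACA letters, so H/ACA genes here are genes with that ACA only and may include matches of those 3 letters alone. C/D genes had a reproducible summit at 13 of 23 (56.5%, 36.8% to 74.4%), H/ACA genes at 5 of 18 (27.8%, 12.5% to 50.9%) and genes with neither at 18 of 122 (14.8%, 9.54% to 22.1%). The C/D genes and those with neither class did not overlap in their intervals. Of the 23 C/D genes, 21 had the earlier identifiers described below, and 32 of all 52 earlier genes had a reproducible summit (61.5%). Box class moved with identifier, and its own part was not tested. The 5 H/ACA genes were Y53F4B.48, T04A8.17, W01C9.6, K02C4.8 (127.1) and ZK643.9 (113.6), with a median signal of 149.8, and the 13 C/D genes had a median of 135.6.

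The gene identifiers also separated the genes. Those numbered below 100000 were called earlier and the others later, a split chosen after the values had been seen. Of the earlier genes 32 of 52 had a reproducible summit (61.5%, 48% to 73.5%) and of the later ones 4 of 111 (3.60%, 1.41% to 8.90%). The 4 later genes were T26A8.6, M7.15, M03D4.78 and F07A11.15, of which the last 3 were among the 5 with the lowest signal. Later genes were longer (median 157 bases against 77) and had C/D letters at 2 of 111, against 21 of 52. The A and B box pair was at 13 of 52 earlier and 3 of 111 later genes. Among the earlier genes 12 of the 13 with the pair and 20 of the 39 without it had a reproducible summit. Hosted snoRNA genes split in the same direction, with 25 of 87 earlier (28.7%, 20.3% to 39.0%) and 3 of 96 later genes (3.1%, 1.07% to 8.79%). The intervals outside and inside hosts did not overlap among earlier genes and did among later ones. Length and box letters moved with the split by identifier, and their part in it was not tested.

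**Figure D4:**
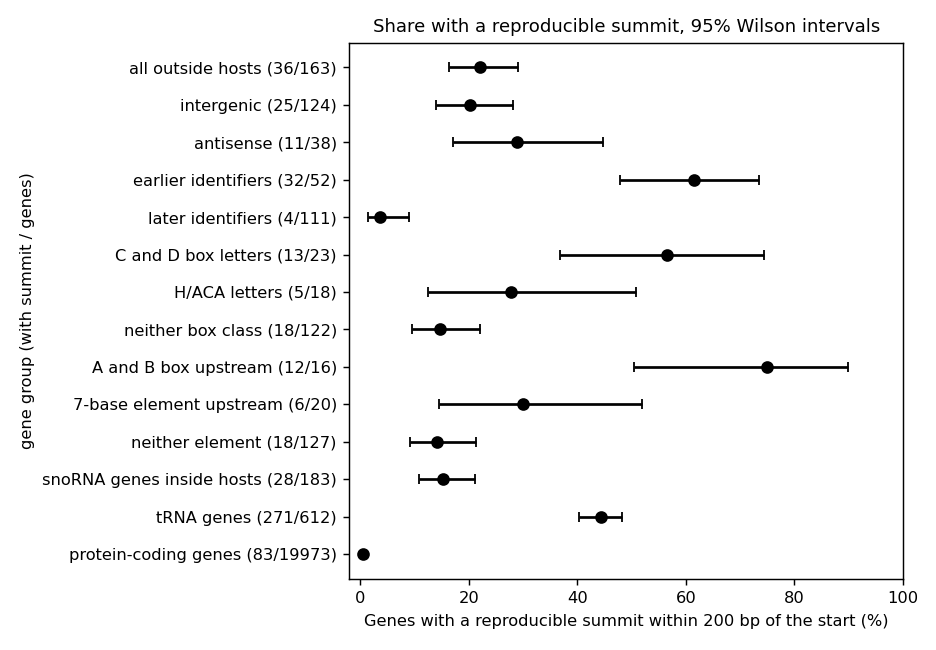
Share of genes with a reproducible summit within 200 bp of the start (x axis, %) for each group of genes (y axis, counts in brackets), with 95% Wilson intervals as bars, for the 163 snoRNA genes outside hosts and their subgroups and for 3 other classes. The earlier identifiers stand at 61.5% and the later ones at 3.60%, and the genes with the A and B box pair stand at 75%.

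By chromosome a reproducible summit was present at 9 of 38 genes on I, 11 of 36 on II, 3 of 16 on III, 9 of 31 on IV, 3 of 19 on V and 1 of 23 on X. Among earlier identifiers the X chromosome had 3 genes, 1 of them with a summit, so its low share went with few earlier genes.

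Some genes resemble each other, and the sources do not say how reads that match several places were treated. F59C6.15 and Y67A10A.14 were identical over 97.1% of their length and had signals of 178.1 and 83.8. Both resembled F25H2.15 (94.9% and 93.8%), which had a pooled summit of 61.8. C53B7.8 and C46C2.8 were 94.5% identical (142.2 and 117.8), and ZK643.9 and K09E9.5 94.7% (113.6 and a pooled 58.8). Identity was measured over the genes only, and most of these summits lay upstream of them. How signal is split within these pairs is therefore uncertain and was not tested.

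The genes that encode the proteins of snoRNPs and of small RNA gene transcription were looked up for comparison, within 500 bp of any transcript start. None of 8 snoRNP genes had a reproducible summit and 7 had a pooled one, against 1.27% and 26.3% of protein-coding genes. The highest of these pooled signals were 43.6 at nola-3, an H/ACA protein, 42.9 at fib-1, the fibrillarin methylase, and 39.3 at nol-56, a core C/D protein, while dkc-1, the dyskerin gene, had no summit. Of 11 matched genes for transcription factors and polymerase subunits none had a reproducible summit and 5 had a pooled one, the highest being 43.9 at rpc-2 and 39.7 at rpc-1, which encode the large subunits of RNA polymerase III. All of these pooled signals were below that of the lowest of the 36 snoRNA genes, 75.7. This follows from the lists, since the reproducible list held the pooled regions with the highest signal. T07F8.4 itself had no summit within 500 bp of a transcript start.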

How the data were processed

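Chromatin from 2 biological replicates of 1 group was sequenced. The deposited ce11 lists, 1 for each replicate (19514 and 17499 regions), 1 pooled (16958) and 1 reproducible (621), gave for each peak the authors' signal, the −log10 q-value and the summit position. The q-values and signals are the authors' own, and per the deposited file descriptions the reproducible list was selected from the other lists. No aligner, peak caller or threshold was given in the sources used here. Lists on ce10 were not used, and read depth is unknown.

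Genes came from Ensembl release 115, and sequences from the RefSeq genome of the same build (WBcel235), in which all 163 genes matched by position. The summit with the highest signal within 200 bp of a gene's start was taken from the reproducible list, else from the pooled list. Summits within 100 bp counted as shared between lists. Coordinates are 1-based. Shares have 95% Wilson intervals, and no test was run because there is 1 group. Python 3.11.15, pandas 2.3.3, scipy 1.17.1, biopython 1.88 and matplotlib 3.10.9 were used, and the steps were checked on simulated data. Alternatives were other windows, other assignments, part of each list and leaving out each replicate. The genes and lists were chosen with earlier results of these data known. Genes were named if they had the 20 highest or 5 lowest reproducible signals, the 5 highest pooled ones without a reproducible summit or the 5 widest rank changes between replicates, or if they were antisense with a reproducible summit or nearer to another start. Genes named for their letters, box class or resemblance, such as T10B9.11, Y53F4B.47, K02C4.8, ZK643.9, H04D03.5, Y59E1B.14 and smy-3, were named after their values were seen. Of 12 listed transcription genes, snpc-3.3 was not matched.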

Additional observations from a re-analysis of the deposited data

How the results depend on the processing

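The share of genes with a reproducible summit was 22.1% and stayed between 19.6% and 23.3% with a summit window of 100 or 500 bp, other rules of assignment, and the upper part of the list by signal. Without replicate 1 it was 20.2% and without replicate 2 it was 22.7%, counted over the highest regions of the other replicate's list. Restricting the genes to earlier identifiers, an alternative chosen after the data had been seen, raised it to 61.5%, by leaving out 111 genes of which 4 had a summit. The median summit position stayed between -45 and -36 bp over these alternatives. The median signal stayed between 138.9 and 150.6 over those that kept the pooled signal, and was not computed without a replicate, since the replicate lists have signals of their own. The share with a summit in both replicate lists was 100% and fell to 88.9% (32 of 36) when each replicate list was restricted to its 621 highest regions, which leaves fewer summits to find. The share with any pooled summit was 43.6%, and was 33.7% within 100 bp and 52.8% within 500 bp, since a wider window holds more summits. The A and B box pair, GCGGAAC, the run of 4 T and the split by identifier were chosen after the data had been seen and carry no test. No paired analysis was possible because there is 1 group.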
